A study of Arabidopsis thaliana with 32 samples.

Results

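Reciprocal hybrid endosperm of Arabidopsis thaliana is described here from 4 of the 32 libraries of the series, chosen by their labels: 2 libraries of Col x C24 and 2 of C24 x Col, with the mother named first. Col (Col-0) and C24 are inbred accessions, and each seed came from a controlled cross. Both crosses give the same nuclear alleles and differ in which accession is the mother, and so in allele dose, parental imprint, cytoplasm and maternal seed tissue. Endosperm was isolated from the seed by laser capture microdissection, RNA was selected for poly-A tails, and reads were counted per gene. The series also holds selfed Col and C24 endosperm, embryos of the same crosses, and seeds of cytoplasm-swapped lines (CNS lines), each as groups of 2 libraries. A CNS group in each tissue joined 2 unlike crosses. The age of the seeds was not given in the sources used here. Nor do the labels say that the libraries of a group came from separate plants, so p-values measure the spread between these libraries, and captured regions that share a plant would make them too small.

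Endosperm is the nourishing tissue of the seed and the partner of the embryo in double fertilisation. It receives a double dose of the maternal genome and a lone paternal genome, so a gene expressed in proportion to dose differs between reciprocal crosses whenever the parental alleles differ in strength. In imprinted genes the allele of one parent is kept less active whichever accession that parent is, and most imprinted plant genes are known from endosperm.

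The Col x C24 libraries held 8640820 and 15310809 gene counts and the C24 x Col libraries 12381236 and 29530418, so low genes were measured less precisely in Col x C24. Reads carrying a C24 allele made up 30.8% and 30.8% of nuclear allele reads in Col x C24 but 63.4% and 64.1% in C24 x Col. These were close to, but each below, the share that 1 and 2 C24 genomes of 3 would give. How evenly reads of either allele were mapped was not tested. In organelle genes reads carrying a C24 allele were 0.604% and 0.242% against 99.7% and 99.5%, so the mother named in each label was the one the reads show. The 12 tested endosperm markers were summed in counts per 1e6 (CPM, scaled between libraries by TMM). The sums were 1960 and 1944 CPM in Col x C24 against 1536 and 1751 CPM in C24 x Col. HDG3 alone gave 1093 and 1132 CPM against 673 and 904 CPM of them, while ALE1, PHE1, FIS2, IKU1, CKX2 and IKU2 were lower in Col x C24. AGL62 and IKU2, known from early endosperm, were at 0.489 CPM or less in all 4 libraries. The 24 embryo markers summed to 273 to 390 CPM. LEC1 alone gave 170 and 241 CPM of this in Col x C24 and 145 and 216 CPM in C24 x Col. FUS3, PDF1 and CUC1 were at 7.82 to 38.4 CPM, and STM, WOX2, PLT1, PLT2, CUC2 and PIN4 at 0.443 CPM or less. The 24 seed coat markers, genes of tissue that is wholly maternal, summed to 638 and 799 CPM in Col x C24, against 414 and 927 in C24 x Col, and none was at 0 in any library. Their part in the results that follow was not tested.

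The direction of the cross changed a small set of genes, most of them without a gene symbol. Endosperm with a C24 mother had more of the transcription factor subunit gene NF-YC5, the homeodomain-like gene AT5G62110, the BAH-domain gene AT4G23120, the defensin-like gene LCR8 and CYP79A2 of benzylglucosinolate synthesis. Endosperm with a Col mother had more of the protease inhibitor gene CYSA, of PP2-B1, GAE1, ATG8D and ADF6, and of several genes that were almost silent in the other cross. Of 21210 genes tested, 47 passed an adjusted p of 0.05 (0.222%), 19 of them higher in Col x C24 (0.0896%) and 28 lower (0.132%; edgeR's quasi-likelihood test, Benjamini-Hochberg). At an unadjusted p under 0.05 there were 1666. In all 47 the libraries of the crosses did not overlap, which held for 40.9% of all genes tested, and the smallest difference among the 47 was 1.08 on the log2 scale. The count rests on every library: without Col x C24 replicate 1 it was 3, without replicate 2 it was 15, and without C24 x Col replicate 1 or 2 it was 4 or 19, the remaining library of a group being taken to vary like the other groups. DESeq2 called 324 genes, among them all 47. In pooled tissue a change in the number of cells of a type and a change in RNA per cell cannot be told apart.

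**Figure D1:**
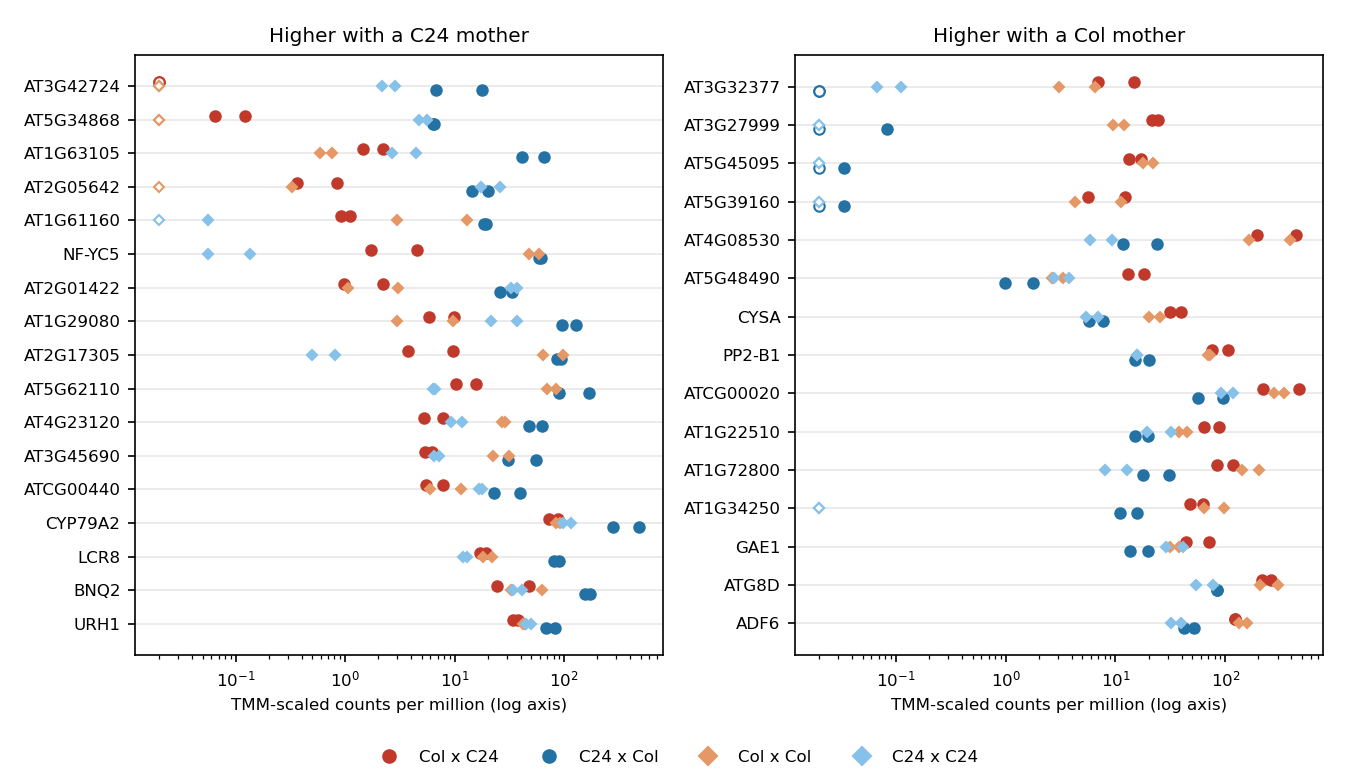
TMM-scaled counts per 1e6 (log axis) of the 32 named genes in each library of the reciprocal hybrids (circles) and of the selfed parents (diamonds), with genes higher with a C24 mother on the left and with a Col mother on the right; open symbols at the left edge stand for 0 reads. The circles of the crosses do not overlap for any gene, and NF-YC5 stood at 1.71 and 4.5 CPM in Col x C24 against 61.5 and 58.9 CPM in C24 x Col.

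Of the 47 genes, 38 are protein coding, 6 are pseudogenes, 1 is a noncoding RNA and 2 lie in the chloroplast genome. The nuclear ones lie on all chromosomes, with 9, 12, 6, 6 and 12 on chromosomes 1 to 5. For 6 of them at least 50% of the gene has a copy elsewhere at 90% identity or more, so reads could have been shared between copies. Another 7, CYSA among them, overlap a neighbouring gene, and the strand setting of the counting was not given in the sources used here.

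Sequence upstream is shown for the 3 genes that were called in every fit that left out a library, AT5G62110, AT4G23120 and AT5G45095. Each run is the 200 bases before the annotated gene start, 5′ to 3′ on the gene's strand, from the RefSeq assembly TAIR10.1, at chr5:24946088-24946287 (minus strand), chr4:12113108-12113307 (plus strand) and chr5:18207163-18207362 (plus strand), with matches to the W-box core TTGAC on either strand in capitals.
AT5G62110: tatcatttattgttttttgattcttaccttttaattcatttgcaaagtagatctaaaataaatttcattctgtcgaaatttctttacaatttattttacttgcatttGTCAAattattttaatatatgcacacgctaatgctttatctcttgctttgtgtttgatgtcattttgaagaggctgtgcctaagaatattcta
AT4G23120: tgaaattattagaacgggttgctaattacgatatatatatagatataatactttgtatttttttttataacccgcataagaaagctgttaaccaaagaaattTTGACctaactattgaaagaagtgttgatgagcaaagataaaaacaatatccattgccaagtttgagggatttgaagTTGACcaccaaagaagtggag
AT5G45095: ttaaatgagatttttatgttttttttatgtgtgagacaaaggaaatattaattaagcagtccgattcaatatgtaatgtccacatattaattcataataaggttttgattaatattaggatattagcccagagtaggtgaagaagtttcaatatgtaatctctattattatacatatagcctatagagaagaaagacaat
AT5G62110 had 1 match, AT4G23120 had 2 and AT5G45095 had none. Among the 38 called protein-coding genes 15 had a TTGAC match in this window, beside 38.1% of the 20079 promoters of tested genes. The CCAAT letters bound by NF-Y complexes were in 14 of the 38, beside 41.2% of all, and in none of the 3 windows shown. TATAAA was in 21 of 38, beside 40.1%, and CACGTG in 5, beside 6.43%. These matches describe the letters only.

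Among the regulators, AT5G62110 (chromosome 5, 24942169 to 24946087, TAIR10.1) stood at 10.3 and 15.8 CPM in Col x C24 against 167 and 89.4 CPM in C24 x Col, a log2 difference of -3.29 ± 0.34 (SE; adjusted p = 0.00118, edgeR). It encodes a homeodomain-like protein, a fold that binds DNA. AT4G23120 (chromosome 4, 12113308 to 12115523), whose BAH domain is found in chromatin proteins, was at 5.25 and 7.76 CPM against 62.8 and 47.5 CPM (-3.07 ± 0.32, adjusted p = 0.00118). NF-YC5 (chromosome 5, 20560434 to 20561228), a subunit of the trimeric NF-Y factors that bind CCAAT boxes, differed by -4.21 ± 0.74 (adjusted p = 0.0315). Both replicates of C24 x Col lay above both of Col x C24 by a wide margin in all 3 genes. BNQ2 (chromosome 5, 4921243 to 4922812), a small helix-loop-helix protein that does not bind DNA itself, was at 24.2 and 47.9 CPM in Col x C24 against 153 and 171 CPM in C24 x Col (-2.16 ± 0.40, adjusted p = 0.039). Of its list of helix-loop-helix genes BNQ2 was the only call among 5 tested. NF-YC5 was the only call among 29 NF-Y subunits tested, whose median log2 difference was -0.24 beside -0.03 over all genes; its neighbours NF-YC6 and NF-YC7 had log2 differences of -0.63 and -0.20.

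LCR8 (chromosome 3, 22641713 to 22642182), which encodes a small cysteine-rich defensin-like peptide, stood at 19.2 and 17.0 CPM with a Col mother and at 90.2 and 80.2 CPM with a C24 mother (-2.24 ± 0.29, adjusted p = 0.00853). It was the only call among 50 LCR genes tested, whose log2 differences ran from -7.35 to 4.33. The lowest, LCR60, was at 0 and 0 against 0.0827 and 1.64 CPM, near the floor. The highest, LCR62, was at 57.1 and 4.31 against 2.98 and 0.409 CPM, far apart between replicates. AT1G29080 (chromosome 1, 10157494 to 10158805), a papain-type cysteine protease gene, was at 5.87 and 9.79 CPM against 128 and 95 CPM (-3.81 ± 0.58, adjusted p = 0.0182). CYSA (chromosome 2, 17057388 to 17058122), a cystatin that inhibits proteases of that type, moved the other way, with 39.5 and 31.1 CPM in Col x C24 against 5.71 and 7.73 CPM in C24 x Col (2.38 ± 0.39, adjusted p = 0.0224). The other cystatins tested, CYSB, CYS1, CYS2 and AT4G16500, had log2 differences between -0.47 and 0.64, and none passed.

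In metabolism, CYP79A2 (chromosome 5, 1559608 to 1561802), which starts benzylglucosinolate synthesis from phenylalanine, was at 72.2 and 88.1 CPM with a Col mother and at 482 and 278 CPM with a C24 mother (-2.25 ± 0.41, adjusted p = 0.039). It was the only call among 15 glucosinolate genes tested. URH1 (chromosome 2, 15224497 to 15227276), a nucleoside hydrolase that splits uridine, showed the smallest called difference, from 37.6 and 33.8 CPM to 82.3 and 68.9 CPM (-1.08 ± 0.20, adjusted p = 0.0478), and passed in 5 of 9 other settings. GAE1 (chromosome 4, 14881689 to 14883583), an epimerase that makes the sugar precursor of pectin, was higher with a Col mother, at 70.5 and 43.7 CPM against 13.6 and 19.9 CPM (1.76 ± 0.32, adjusted p = 0.039). No other member passed among 6 GAE genes and 11 genes of nucleoside salvage.

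PP2-B1, ATG8D and ADF6, members of separate lists, were higher with a Col mother. PP2-B1 (chromosome 2, 589945 to 591689), which combines an F-box with a phloem lectin domain, was at 105 and 76.1 CPM in Col x C24 against 20.3 and 15.0 CPM in C24 x Col (2.36 ± 0.36, adjusted p = 0.0182). ATG8D (chromosome 2, 2082894 to 2084905), a ubiquitin-like protein that is attached to the autophagosome membrane, was at 258 and 217 CPM against 84.8 and 83.6 CPM (1.5 ± 0.27, adjusted p = 0.039). ADF6 (chromosome 2, 13293953 to 13295410), which severs actin filaments, was at 123 and 124 CPM against 42.2 and 51.7 CPM (1.39 ± 0.22, adjusted p = 0.0224). Replicates of ADF6 agreed closely in both crosses. Each was the only call of its list, among 15 PP2 genes, 23 autophagy genes and 8 ADF genes tested.

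AT4G08530 and AT5G48490, both annotated with a lipid-transfer fold, were also higher with a Col mother; no list of such genes was tested. AT4G08530 (chromosome 4, 5421857 to 5422237) was at 442 and 193 CPM in Col x C24 against 23.8 and 11.7 CPM in C24 x Col (4.17 ± 0.79, adjusted p = 0.0478). AT5G48490 (chromosome 5, 19647784 to 19648362) was at 18.3 and 12.9 CPM against 0.992 and 1.77 CPM (3.46 ± 0.65, adjusted p = 0.0454). AT1G22510, annotated as an E3 ubiquitin ligase, and AT1G72800, annotated as an RNA-binding protein, differed by 2.12 and 2.07 (adjusted p = 0.0196 and 0.0271), and the pseudogene AT1G34250 by 2.04 (adjusted p = 0.0271). These 3 were at 47.7 to 118 CPM in Col x C24 libraries and at 11.1 to 30.6 CPM in those of C24 x Col. The 4 called genes not named by the rule in this direction differed by 1.52 to 1.88, and the 11 in the other direction by -2.50 to -1.58.

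Several genes were close to silent in one cross. AT5G45095 (chromosome 5, 18207363 to 18209052), of no annotated function, was at 13.2 and 17.0 CPM in Col x C24, with 369 reads, and had 1 read in the C24 x Col libraries together (ratio 650.5, exact 95% counting interval 116 to 2.576e+04; adjusted p = 0.00127). AT3G27999 (chromosome 3, 10402872 to 10403511), an invertase and pectin methylesterase inhibitor gene, had 525 reads against 1 (ratio 925.5, interval 165.4 to 3.662e+04; adjusted p = 0.0171). The cupin gene AT5G39160 had 185 reads against 1 (ratio 326.1, interval 57.81 to 1.295e+04; adjusted p = 0.0224). Each of these was at 0 in both selfed C24 libraries. The pseudogene AT3G32377 had 226 reads in Col x C24 and none in C24 x Col, at least 132.8-fold higher against a floor of 3 counts over the group (adjusted p = 0.0171). AT3G27999, AT5G39160 and AT3G32377 have copies elsewhere over 99.8%, 100% and 100% of their length, so their own share of the reads is uncertain.

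In the other direction the pseudogene AT3G42724 had 411 reads in C24 x Col and none in the other cross, at least 77.71-fold higher against the same floor (adjusted p = 0.0478). AT5G34868, of which 69.03% has a copy elsewhere, had 2 reads against 267 (ratio 75.73, interval 20.76 to 628.5; adjusted p = 0.0323). AT2G01422 (chromosome 2, 183940 to 184734), a noncoding RNA, stood at 0.978 and 2.22 CPM in Col x C24 against 26.1 and 33.4 CPM in C24 x Col (-4.15 ± 0.48, adjusted p = 0.00235). AT1G63105, AT2G05642, the retrotransposon gag gene AT1G61160, the F-box gene AT2G17305 and the transporter gene AT3G45690 had log2 differences of -4.82, -4.72, -4.24, -3.72 and -2.90 (adjusted p = 0.0271, 0.0234, 0.0224, 0.0315 and 0.0111). These 5 were at 0.367 to 9.59 CPM in Col x C24 libraries and at 14.3 to 93.7 CPM in C24 x Col libraries.

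Dose of unequal parental alleles can give a difference of at most 2-fold between the crosses, so the test was repeated against a difference of 2-fold. It called 6 genes (0.0283%; edgeR's glmTreat, 479 at an unadjusted p under 0.05): AT3G32377, AT3G27999 and AT5G45095 higher with a Col mother (0.0141%), and AT4G23120, AT5G62110 and AT2G01422 with a C24 mother (0.0141%). Without Col x C24 replicate 1 there was 1 such gene, without Col x C24 replicate 2 there were 6, and without C24 x Col replicate 1 or 2 there were 2 each.

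The selfed parents show what each accession expressed alone. Selfed Col and selfed C24 endosperm differed at an adjusted p under 0.05 in 34 of the 47 genes, against 7.96% of all genes tested. In 31 of the 47 the hybrid with the higher parent as its mother was the higher one. In 11 genes the called selfed difference ran against the hybrid difference. Shares over all genes were not computed for these counts of direction, so the counts are a description. Each hybrid was nearer its selfed mother in 14 of the 19 genes higher with a Col mother and in 13 of the other 28. The share over all genes was 24.04%. Each was nearer its selfed father in 2 of the 19 and 10 of the 28, beside 17.16%. Called genes were chosen for a difference between the hybrids, so these counts are also a description. PP2-B1, CYSA, ADF6 and ATG8D, nearer the mother, passed between the selfed parents and were higher in selfed Col. NF-YC5 was at 47.4 and 59.1 CPM in selfed Col and at 0.136 and 0.0558 CPM in selfed C24, yet was low with a Col mother and high with a Col father. Dose of those selfed levels would give a log2 difference of 0.98 where -4.21 was observed. AT5G62110, at 83.7 and 69.4 CPM in selfed Col and 6.59 and 6.36 CPM in selfed C24, and AT2G17305, at 63.6 and 98.1 against 0.815 and 0.502 CPM, had the same arrangement. CYP79A2, BNQ2, LCR8 and URH1 did not pass between the selfed parents, with log2 differences of -0.29, 0.33, 0.68 and -0.14, and their C24 x Col libraries lay above all 4 selfed libraries.

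**Figure D2:**
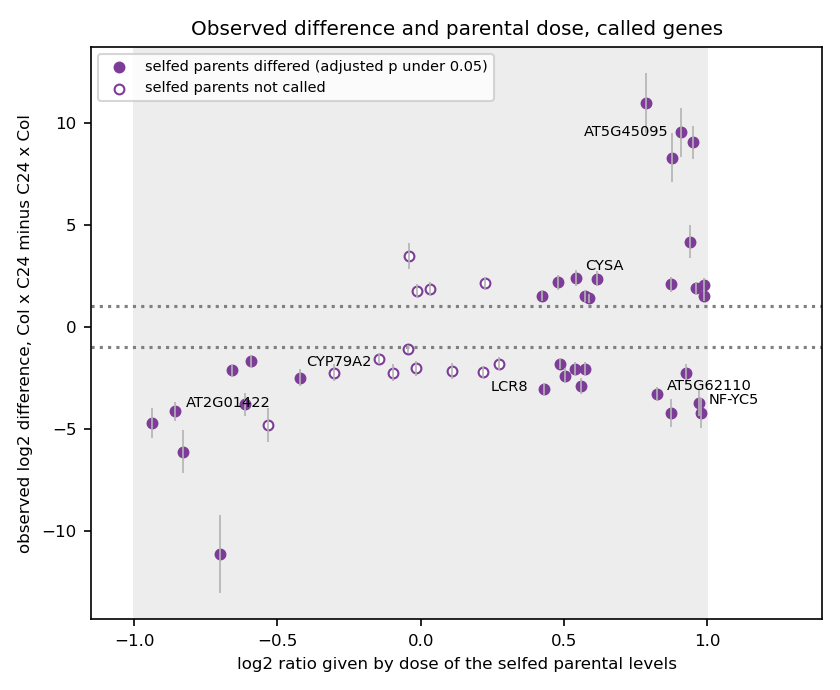
Observed log2 difference between the reciprocal hybrids (vertical axis, ± SE) against the log2 ratio that maternal and paternal dose would give from the selfed levels (horizontal axis) for the 47 called genes; the shaded band and dotted lines mark 2-fold. Filled points are genes called between the selfed parents; NF-YC5, at 0.98 by dose and -4.21 as observed, lies at the lower right.

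Hybrid levels often lay outside the range of the selfed parents. Both C24 x Col libraries were above all 4 selfed libraries in 21 of the 28 genes that were higher with a C24 mother, beside 9.38% of all genes. Both Col x C24 libraries were above them in 9 of the 19 genes that were higher with a Col mother, beside 4.32%. Both Col x C24 libraries were below all selfed libraries in 5 of the 28 and both C24 x Col libraries in 4 of the 19, beside 4.71% and 6.21%. Genes called higher in a cross were chosen for a high level in it, so these counts are a description.

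Allele reads showed which parent's copies were read. Against the 2 to 1 ratio of genomes, 338 of 8271 genes tested (4.09%) had a parental bias in the reciprocal hybrids, 170 maternal and 168 paternal (edgeR's quasi-likelihood test, Benjamini-Hochberg). The bias is an average over both crosses: 147 of the 170 and 132 of the 168 lay on their side of the 2 to 1 ratio in all 4 libraries. The count was 1140 without Col x C24 replicate 1, 421 without its replicate 2, and 178 or 131 without C24 x Col replicate 1 or 2. Of the 47 genes, 31 had allele reads, 17 had enough for the test, and 5 were biased. AT4G04580, a homeodomain-like gene at 240 and 268 CPM in Col x C24 against 1231 and 894 CPM in C24 x Col, carried 98.8% maternal reads in Col x C24 (exact 95% interval 97.6% to 99.5%) and 98.9% in C24 x Col (98.6% to 99.2%), a bias of 5.43 ± 0.18 on the log2 scale (adjusted p = 3.1e-09). AT5G41830, whose whole length has a copy elsewhere, was maternal by 5.82, with maternal shares of 96.7% (Col x C24) and 99.8% (C24 x Col). By maternal share, the other 3 called biases lay mainly in the C24 x Col libraries, and these genes also had an allele effect. AT4G18150, maternal by 1.97 on average, had 97.7% maternal reads in C24 x Col but 60.2% in Col x C24 (55.8% to 64.4%), below the 2 to 1 ratio, and its Col allele stood at -2.41 on the log2 scale relative to its C24 allele (adjusted p = 2.8e-07, edgeR). AT5G24240, maternal by 1.99 on average, had 96.4% in C24 x Col and 69.3% in Col x C24 (66.6% to 71.9%), with an allele effect of -1.82 (adjusted p = 6.2e-05, edgeR). AT2G17305, at -2.95 ± 0.40 on average (adjusted p = 0.00045, edgeR), had 1.92% maternal reads in C24 x Col but 77.4% in Col x C24 (63.8% to 87.7%). Its Col allele was higher by 3.66 (adjusted p = 6.4e-06, edgeR). Selfed C24 was at 0.815 and 0.502 CPM, so the share in Col x C24 cannot tell a parental bias from a weak C24 allele. In the same units its Col allele gave 245 and 195 from the father and 3.17 and 6.16 from the mother. Of 9 seed coat markers in the allele test 7 were called maternal, and the part of maternal tissue in the maternal calls was not tested.

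NF-YC5 and AT5G62110 had too few reads in Col x C24 for the test, and are described by their reads. In C24 x Col, 1133 of 1133 NF-YC5 allele reads came from the paternal Col allele, so the maternal share was 0% with an exact upper limit of 0.325%. In Col x C24 there were 33 Col and 19 C24 reads, a maternal share of 63.5% (49.0% to 76.4%) whose interval holds the 2 to 1 ratio. Per genome copy, and scaled to counts per 1e6 (CPM) of nuclear allele reads, the Col allele of NF-YC5 gave 141 and 177 when it came from the father and 1.41 and 5.58 when it came from the mother. AT5G62110 had 575 paternal and 0 maternal reads in C24 x Col (maternal share 0%, upper limit 0.640%), and 41 paternal and 5 maternal reads in Col x C24. AT2G01422 was read from the mother's allele in 599 of 600 reads in C24 x Col. In Col x C24 the count was 8 of 8 (63.1% to 100%), all from replicate 1, and replicate 2 had 0 allele reads.

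In 12 of the 17 genes no parental bias was called, and in several of these both alleles moved together. The Col allele of PP2-B1 gave 76.7 and 57.0 CPM per genome copy in Col x C24 against 11.3 and 10.5 in C24 x Col. Its C24 allele gave 65.4 and 42.4 against 13 and 10.4. Both alleles were thus higher with a Col mother, and the maternal share was 71.7% and 67.6% in the respective crosses. ADF6, ATG8D and AT4G08530 also had both alleles higher with a Col mother in every library, and URH1 and AT2G15740 had both alleles higher with a C24 mother. AT2G15740, a C2H2 zinc finger gene, went from 8.44 and 18.1 to 62.9 and 67.0 per copy for the Col allele and reached 65.1 and 63.3 for the C24 allele in C24 x Col.

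**Figure D3:**
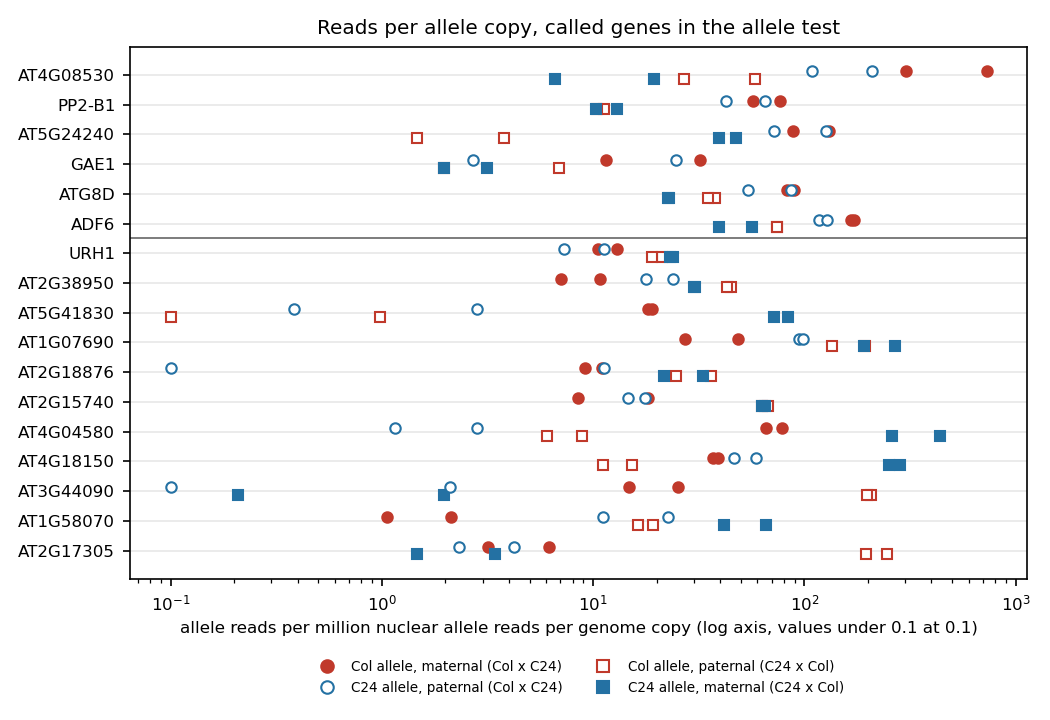
Allele reads per genome copy, scaled to counts per 1e6 of nuclear allele reads (log axis), for the 17 called genes in the allele test, in each library; circles are Col x C24 and squares C24 x Col, red the Col and blue the C24 allele, filled maternal and open paternal copies. Genes above the line were higher with a Col mother; for PP2-B1 all circles lie to the right of all squares, and for AT2G17305 the paternal Col allele in C24 x Col, at 245 and 195, lies apart from the rest.

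The genes listed here as known to be imprinted were not called between the crosses. Of the 338 genes with a parental bias in these data 5 were called (1.48%), beside 0.206% of all genes in the allele test. The allele counts share their reads with the gene counts. Of 8 maternally expressed imprinted genes in the allele test 3 were called maternal and none paternal, and of 9 paternally expressed ones 6 were called paternal and 2 maternal. None of 11 maternally and 12 paternally expressed imprinted genes tested was called (median log2 differences -0.26 and -0.49, beside -0.03 over all genes). SDC, an F-box gene, stood at 156 and 140 CPM against 187 and 169 CPM and was maternal by 7.75 on the log2 scale, and FIS2, a Polycomb subunit of endosperm, was maternal by 7.00. The third maternal call, HDG9, had 96.9% maternal reads in C24 x Col but 65.7% in Col x C24 (64.0% to 67.3%). YUC10 of auxin synthesis, the chromatin remodeller PKR2, VIM5 and the MADS gene PHE1 were paternal, at -7.98, -7.69, -5.68 and -5.63. SUVH8, listed here by the table's symbol SDG21, and MYB3R2 are the 2 listed as paternally expressed that carried a maternal bias, of 6.04 and 5.03. PKR2, with 18.9 and 15.5 CPM against 44.9 and 36.2 CPM, had an unadjusted p of 0.0079 and an adjusted p of 0.325.

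Type I MADS genes, transcription factors of early endosperm, had a median log2 difference of -1.45 over 13 tested members, and none was called. PHE1 was at 35.6 and 104 CPM in Col x C24 against 196 and 169 CPM in C24 x Col (-1.38 ± 0.84, adjusted p = 0.783). The Col x C24 libraries stood far apart from each other in PHE1, and both lay below those of C24 x Col. No member was called in the lists of storage and oil genes (11 tested), cell cycle genes (20), heat and stress genes (12), wound genes (7), or endosperm (12), embryo (24) and seed coat markers (24).

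**Figure D4:**
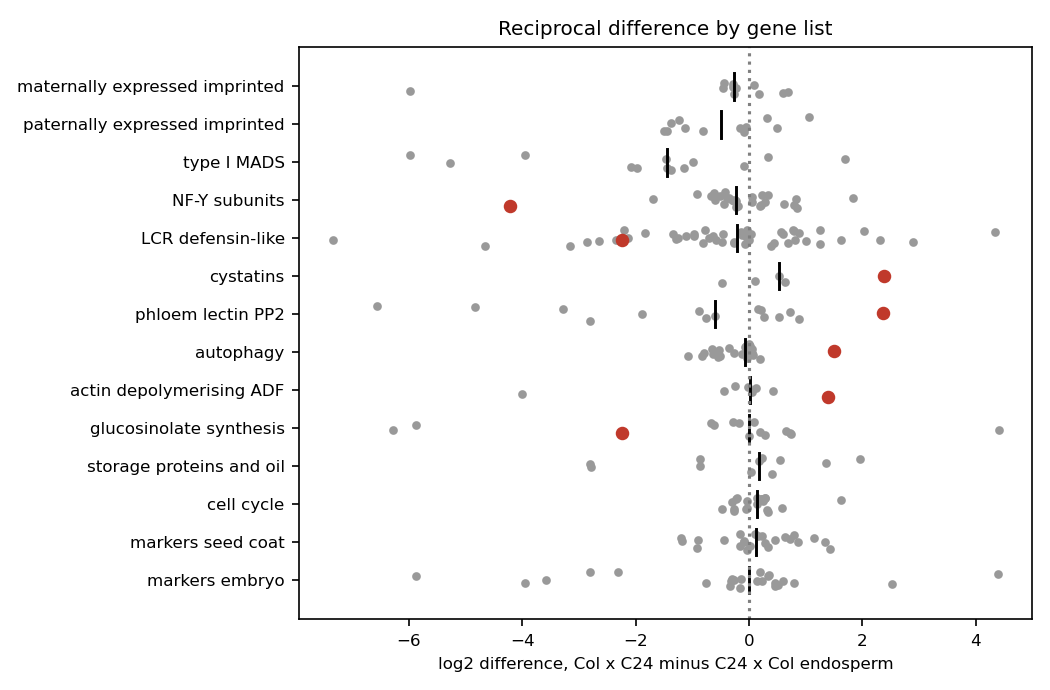
Log2 difference, Col x C24 minus C24 x Col endosperm, of each tested member of 14 gene lists; red points passed an adjusted p of 0.05 and black bars are medians. Red points stand alone in their lists, and the bar of type I MADS genes is at -1.45, with members near the floor included.

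Organelle transcripts were measured from poly-A selected RNA. Of 82 chloroplast genes tested 1 was called in each direction, with a median log2 difference of 0.95. Of 56 mitochondrial genes none was called, with a median of 1.60. An unadjusted p under 0.05 (edgeR) was found for 31 of the 82 and 16 of the 56, beside 1666 of the 21210 genes tested. ATCG00020 was at 468 and 220 CPM in Col x C24 against 57.0 and 94.6 CPM in C24 x Col (2.18 ± 0.37, adjusted p = 0.0271). ATCG00440 went the other way, with 7.82 and 5.48 CPM against 23.0 and 39.9 CPM (-2.25 ± 0.42, adjusted p = 0.0418). Mitochondrial genes made up 1.13% and 0.509% of counts in Col x C24 against 0.181% and 0.261% in C24 x Col, and reads outside annotated genes 14.3% and 9.49% against 6.60% and 8.24%. Both shares were higher in Col x C24 replicate 1 than in any other of the 4 libraries, and their part in the organelle values was not tested.

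Crosses of CNS lines repeat the comparison with the cytoplasm changed in 3 of the 4 libraries. By allele reads, Col(C24) carries a C24 nucleus in Col cytoplasm. The CNS crosses with a Col-nucleus mother were Col x Col(C24) and C24(Col) x Col(C24), 1 library each, and those with a C24-nucleus mother were 2 libraries of Col(C24) x Col. C24 reads in organelle genes were 0.0285% in Col x Col(C24), which thus had Col cytoplasm like Col x C24, 99.9% in C24(Col) x Col(C24), and 0.0173% and 0% in Col(C24) x Col (of 3212 reads in the latter, which allows up to 0.115%). Of the 47 genes 46 moved in the same direction with the nucleus of the mother, beside 68.4% of all genes, and 30 were called there too, which is 63.8% of the 47 and 43.5% of the 69 genes called in CNS crosses (0.325%). Without 1 of the 4 CNS libraries the 69 became 6 to 253, the 253 without Col(C24) x Col replicate 1 and the 6 without its replicate 2, and without 1 of the 8 hybrid libraries the 30 became 3 to 32. AT5G62110 was at 8.24 and 8.10 CPM with a Col-nucleus mother and at 109 and 82.3 CPM with a C24-nucleus mother (-3.54 ± 0.34, adjusted p = 0.000423). AT4G23120 was at 4.35 and 3.00 against 32.8 and 44.1 CPM (-3.38 ± 0.32, adjusted p = 0.000423). CYSA, PP2-B1, GAE1, ATG8D, ADF6 and AT5G48490 were not called there, with log2 differences of 1.87, 1.34, 1.10, 0.70, 0.65 and 2.04. The exception in direction was the chloroplast gene ATCG00440, at 4.56 and 8.66 against 5.86 and 5.40 CPM (0.22 ± 0.40, adjusted p = 0.868). A direct test of the difference between the standard and CNS contrasts called 0 genes (edgeR; 293 at an unadjusted p under 0.05; DESeq2 called 1).

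**Figure D5:**
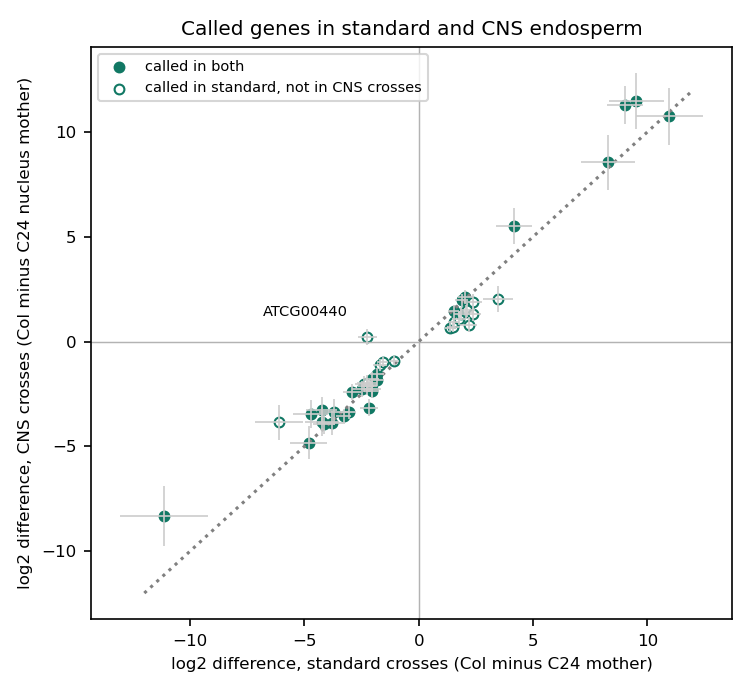
Log2 difference by mother in CNS crosses (vertical axis, ± SE) against that in standard crosses (horizontal axis, ± SE) for the 47 called genes, with the dotted line marking equal values; filled points were called in both. ATCG00440, at -2.25 and 0.22, is the point on the other side of 0.

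In embryos of the same crosses 2 genes were called (0.00988%; edgeR; 826 at an unadjusted p under 0.05), 1 of them among the 47. AT4G18150, a gene of the DUF1296 family, was at 60.7 and 42.0 CPM in Col x C24 endosperm and at 277 and 172 CPM in C24 x Col endosperm (-2.13 ± 0.31, adjusted p = 0.0172), and at 0.520 ± 0.194 against 5.92 ± 1.60 CPM in embryo (mean ± SD, n = 2 each; log2 difference -3.46, adjusted p = 0.02). Of the 47 genes 40 had the same direction in embryo, beside 59.6% of all genes in both fits. Several of them were near the floor in embryo. NF-YC5 averaged 0.0526 CPM in Col x C24 against 1.19 CPM in C24 x Col embryo, and AT5G62110 0.137 against 1.61 CPM. URH1, ADF6 and ATG8D, with means of 22.6 to 39.0 CPM in embryo, had log2 differences of 0.01, 0.07 and 0.04 there. What gave the shared direction was not tested. The difference between the tissues was itself called for 3 genes of 20235 (0.0148%), of which AT5G48490 is among the 47, and for 0 to 11 genes when 1 of the 8 libraries compared was left out (0 without either Col x C24 embryo library, 11 without Col x C24 endosperm replicate 2). In embryo it was at 11.6 ± 0.427 CPM in Col x C24 against 17.2 ± 1.84 CPM in C24 x Col, and its endosperm difference exceeded that of embryo by 3.96 ± 0.46 on the log2 scale (adjusted p = 0.00785).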

How the data were processed

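The authors deposited read counts per gene for each library, unnormalised, and for hybrid libraries counts per gene of reads from either allele, the reference one being read here as Col and its alternative as C24. The tools named, per the submitters' processing notes, are Trimmomatic, STAR, HTSeq and edgeR, with TAIR10 as the build; their roles and versions, and how alleles were assigned, were not given in the sources used here. Lines that name no gene were removed before scaling and testing, of which reads outside features were 14.3% and 9.49% (Col x C24) and 6.60% and 8.24% (C24 x Col) of all counts. Of 33602 genes, 32835 matched RefSeq's TAIR10.1 annotation by locus tag, which gave names, positions and sequences.

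Counts were fitted in R 4.3.3 with edgeR 4.0.16 (quasi-likelihood, TMM, filterByExpr with a minimum count of 10) over all 16 endosperm libraries in 8 groups, which share the estimate of spread, or over the 16 standard libraries of both tissues for embryo. The CNS endosperm group with a Col(C24) father joined unlike crosses, Col x Col(C24) and C24(Col) x Col(C24), as if they were replicates. Their difference thus entered the shared spread. Genes were called at a Benjamini-Hochberg adjusted p under 0.05. Each SE was derived from the test, as the absolute log2 difference over the square root of the F statistic. The allele test used genes with at least 10 allele reads in each library, with library and allele terms and an offset for 2 maternal genomes to 1 paternal. The dose ratio adds 0.5 CPM to each selfed level. Intervals are exact (Clopper-Pearson) and cover counting error only, as do floors of 3 counts, since reads carry no molecular identifiers. Copies were sought with BLAST 2.17.0. The models were tested on simulated data. DESeq2 1.42.0, other scalings, no filter, other sets of libraries, a replicate block and left-out libraries were the alternatives.

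Named genes are the 12 called genes with the largest change in each direction, those called in every left-out fit or beyond 2-fold, and called members of the gene lists; other genes are named by how they bear on a comparison, after their values were seen. The members and lists were chosen with earlier results of these data known. The list symbols CRB and CRC were read as the cruciferin genes.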

Additional observations from a re-analysis of the deposited data

Results flagged for a closer look

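The reciprocal difference itself differed between endosperm and embryo in 3 genes (edgeR's quasi-likelihood test of the interaction, Benjamini-Hochberg). AT4G15390, an HXXXD-type acyl-transferase gene, had 17.1 ± 0.107 CPM in Col x C24 against 0.240 ± 0.138 CPM in C24 x Col endosperm, and 27.0 ± 1.45 against 24.7 ± 9.10 CPM in embryo (mean ± SD, n = 2), a difference of 6.19 ± 0.68 on the log2 scale (adjusted p = 0.00785). Its endosperm difference alone did not pass (adjusted p = 0.0663). MIPS3, a myo-inositol phosphate synthase gene, was at 33.3 ± 5.35 and 164 ± 37.6 CPM in endosperm. In embryo it was at 31.4 ± 1.20 and 27.0 ± 1.19 CPM, a difference of -2.52 ± 0.33 between the tissues (adjusted p = 0.0165, edgeR). Its endosperm difference did not pass in the fit of the endosperm libraries (adjusted p = 0.185, edgeR). AT5G48490 differed by 3.96 ± 0.46 (adjusted p = 0.00785). The count of 3 fell to 0 without either Col x C24 embryo library.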

How the results depend on the processing

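Scaling by DESeq2's size factors or by library totals gave 46 genes each in place of 47, and leaving out organelle genes 42. Without a filter on low counts the reciprocal contrast called 675 genes, and 159 beyond 2-fold; CNS crosses gave 1144, both contrasts 456, the standard against CNS difference 51 and the endosperm against embryo difference 36. DESeq2 gave 324, 23, 574, 189, 1 and 51 for the same results. The 4 hybrid libraries alone gave 114 (41 of the 47 among them) and 14 beyond 2-fold, the 8 standard endosperm libraries 168 and 28, and unlike CNS crosses as separate groups 12 beyond 2-fold. Leaving out 1 library at a time gave 3 to 19 genes, 1 to 6 beyond 2-fold, 6 to 253 in CNS crosses (253 without Col(C24) x Col replicate 1), 3 to 32 in both and 0 to 11 for endosperm against embryo (11 without Col x C24 replicate 2). Parental bias was called in 131 to 1140 genes when a library was left out (1140 without Col x C24 replicate 1, 131 without C24 x Col replicate 2), and in 5749 with no offset for genome dose.

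With the replicate number as a block, 266 genes were called (all 47 among them), 28 beyond 2-fold, 499 in CNS crosses and 185 in both. The labels do not say that a number marks a shared batch. The deviations of same-numbered libraries correlated across genes at 0.15 between Col x C24 and C24 x Col, and over the 6 pairs of standard groups at -0.08 to 0.21, not over 0.1 in every pair, so pairing was not assumed. Whether the numbers mark a batch was not tested.

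Of the 32 named genes none reversed under the 9 other settings of the reciprocal contrast or without a hybrid endosperm library. Leaving out a library took away the call in 100 of 128 cases, and the other settings in 10 of 286 (4 of them URH1; the chloroplast genes had no value with organelle genes left out). For the named genes, the smaller sets of libraries and the split CNS groups were added after seeing the data. The cause of these changes was not tested. Depth limits genes with few reads in Col x C24, above all in allele counts.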
